A study of Mus musculus with 9 samples.

Results

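Transcripts of Nkx2-1 and of 6 other genes of the medial ganglionic eminence (MGE) interneuron lineage, Lhx6, Lhx8, Sst, Npy, Sox6 and Satb1, were examined in fetal mouse brain after gestational alcohol exposure. The 7 genes were chosen by name, and Nkx2-1 was selected on its measured difference between the exposed groups, so its values are given as a description. Each of the 7 symbols matched 1 locus of 1 gene name among the 27095 loci of the deposited table, and all 7 had a mean level of at least 1 FPKM (fragments scaled to exon length and to all mapped fragments) over the 3 groups.

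RNA was sequenced from 9 wild type C57BL/6 fetuses (C57BL/6J in the methods) on gestational day 17, in 3 groups of 3 animals. Control fetuses came from dams given lactated Ringer's solution by intraperitoneal injection on gestational day 7. Exposed fetuses came from dams that received EtOH at 2.9 g/kg by the same route and were sorted at collection into those with ocular and cortical patterning defects (affected) and those without (unaffected). The labels name the tissue fetal brain, and the methods of the study describe dissected cortex. The sort follows the outcome of the exposure, so exposure and phenotype differ together between affected and control fetuses. Sex and litter of the single fetuses cannot be told apart from group here. The table holds 1 FPKM per group and locus and no value for a single animal, so no replicate error and no test was possible. Differences are ratios of group values, called past the limit at 1.5-fold, with log2 values in the text.

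The MGE is a transient ventral swelling of the embryonic telencephalon that produces the parvalbumin and somatostatin interneurons of the cortex, together with neurons of the globus pallidus and cholinergic neurons of the basal forebrain. The homeodomain factor NKX2-1 specifies MGE progenitors and induces LHX6 and LHX8. Cells bound for the cortex switch Nkx2-1 off as they migrate and keep Lhx6, which acts ahead of Sox6 and Satb1 in their maturation, while Lhx8 marks cells of the cholinergic and pallidal lineages. NKX2-1 is also made in the hypothalamus, the thyroid and the lung.

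The promoter windows of Nkx2-1, Lhx8 and Sst, each running from 250 bases before to 50 bases after an annotated start, are shown because the first is the regulatory region that the study assayed for histone methylation, the Lhx8 transcript differed most between groups, and the Sst window carries a well-known response element. They come from RefSeq (GRCm38.p6, the mm10 assembly) and are read 5′ to 3′ on the coding strand, which is the minus strand for all 3. In the Nkx2-1 window, chr12:56536859-56537158, capitals mark the sites of the primer pair that the study designed for chromatin immunoprecipitation. In the Lhx8 window, chr3:154330511-154330810, they mark CAAG, the core recognised by NK2 homeodomain factors. In the Sst window, chr16:23890795-23891094, they mark TGACGTCA, the full cAMP response element.
Nkx2-1: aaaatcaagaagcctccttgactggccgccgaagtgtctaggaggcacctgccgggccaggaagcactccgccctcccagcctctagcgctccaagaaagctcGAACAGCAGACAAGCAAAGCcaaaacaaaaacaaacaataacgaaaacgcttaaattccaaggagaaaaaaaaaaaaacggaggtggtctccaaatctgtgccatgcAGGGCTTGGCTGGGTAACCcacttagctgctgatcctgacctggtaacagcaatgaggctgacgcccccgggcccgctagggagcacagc
Lhx8: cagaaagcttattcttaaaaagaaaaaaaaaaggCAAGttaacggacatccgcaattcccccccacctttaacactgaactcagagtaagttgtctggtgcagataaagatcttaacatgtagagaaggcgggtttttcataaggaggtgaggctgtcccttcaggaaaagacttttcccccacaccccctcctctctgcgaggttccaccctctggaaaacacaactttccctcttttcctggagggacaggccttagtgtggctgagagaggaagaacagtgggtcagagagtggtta
Sst: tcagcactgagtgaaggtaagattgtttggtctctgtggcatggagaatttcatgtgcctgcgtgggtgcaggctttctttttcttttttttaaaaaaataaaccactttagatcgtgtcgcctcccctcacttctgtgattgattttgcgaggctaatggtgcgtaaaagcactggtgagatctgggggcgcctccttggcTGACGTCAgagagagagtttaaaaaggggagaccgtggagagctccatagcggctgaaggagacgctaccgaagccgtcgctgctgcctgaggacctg

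The primers enclose 126 bases, chr12:56536930-56537055, which lie from 147 to 22 bases before the Nkx2-1 start and hold 3 CpG pairs of the 12 in the window. The Lhx8 window has 4 CpG pairs, below the median of 7 over 32851 mouse promoter windows of the same length. TGACGTCA, a palindrome, begins 48 bases before the Sst start and occurs in 1.79% of all windows, and Sst was the only one of the 7 genes to hold it. CAAG, read on both strands, was present in 6 of the 7 windows, which is near the 90.6% of all windows that hold it. Its longer forms CTCAAG and CAAGTG, in 15.9% and 13.6% of all windows, and TAATTA, a core of LIM homeodomain factors, in 5.29%, were in none of the 7. Such matches describe letters in a window and not occupied sites. For Lhx6, Sox6 and Satb1, which have 3, 6 and 5 windows, the most upstream of these windows was searched. The RefSeq gene reaches further upstream than the searched window's start site for Lhx6, Sst and Sox6.

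Nkx2-1 was highest in the unaffected fetuses. The locus, chr12:56531935-56536908 on the minus strand, was at 3.51 FPKM in control, 5.67 FPKM in unaffected and 3.69 FPKM in affected fetuses. The control and affected values lay close together and the unaffected value stood above both. The ratio was 1.62-fold (log2 0.69) for unaffected against control and 0.650-fold (log2 -0.62) for affected against unaffected, both past the limit. With a pseudocount of 1 both fell short of it, at log2 0.56 and -0.51. Affected against control came to log2 0.07 on the deposited scale and to -0.03 when each group was scaled to Gapdh and Ywhaz. An antisense transcript, Gm26973, overlaps the start of Nkx2-1 on the plus strand, and its reads and those of Nkx2-1 cannot be told apart because the use of strand in counting is not given in the sources used here.

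The counting error behind these values was estimated from the steps that whole fragments leave among the lowest loci, which put the mean depth per library at 26400000 fragments for the control, 28800000 for the unaffected and 34900000 for the affected group. At this depth Nkx2-1 rested on about 644, 1134 and 894 fragments per group. The 95% counting interval of its log2 ratio ran from 0.55 to 0.83 for unaffected against control and from -0.75 to -0.49 for affected against unaffected. Both intervals reach below the 1.5-fold limit of log2 0.58, and they leave out the spread between animals.

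Lhx8, which encodes the LIM homeodomain partner of LHX6 in the MGE and directs the cholinergic fate, had the widest range of the 7 genes. The locus, chr3:154306294-154330560, was at 3.23 FPKM in control, 6.78 FPKM in unaffected and 2.93 FPKM in affected fetuses. As with Nkx2-1, the unaffected group stood above the others. It was 2.099-fold above control (log2 1.07, counting interval 0.80 to 1.33), and the affected group was at 0.432-fold of the unaffected (log2 -1.21, counting interval -1.46 to -0.97). The affected value was log2 -0.14 from control, within counting error (-0.45 to 0.15). With a median transcript of 876 bases and about 171, 390 and 204 estimated fragments per group, Lhx8 had the fewest of the 7 genes. The fragments and intervals rest on this median over 5 annotated transcripts, which may differ from the length behind the FPKM. Only 129 of 15463 loci were at least as high in unaffected against control, and 100 of 15467 at least as low in affected against unaffected. For Nkx2-1 these places were 292 and 668.

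Lhx6, the LIM homeodomain gene that carries the MGE programme into migrating interneurons, varied little as deposited. It was at 22.2 FPKM in control, 24.8 FPKM in unaffected and 21.7 FPKM in affected fetuses (chr2:36081953-36105408). The unaffected value was again the highest, by log2 0.16 over control, and the affected was log2 -0.19 from the unaffected. With the length trend removed these were 0.21 and -0.35. All were short of the limit. Relative to Nkx2-1, the FPKM of Lhx6 stood at a ratio of 6.32 for control, 4.38 for unaffected and 5.89 for affected fetuses. Lhx6 per Lhx8 ran from 6.87 in control through 3.66 in unaffected to 7.42 in affected fetuses. Lhx8 per Nkx2-1 was 0.921, 1.20 and 0.794 in the same order. The ratios with Nkx2-1 carry the values it was chosen on, so nothing is read from them.

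**Figure D1:**
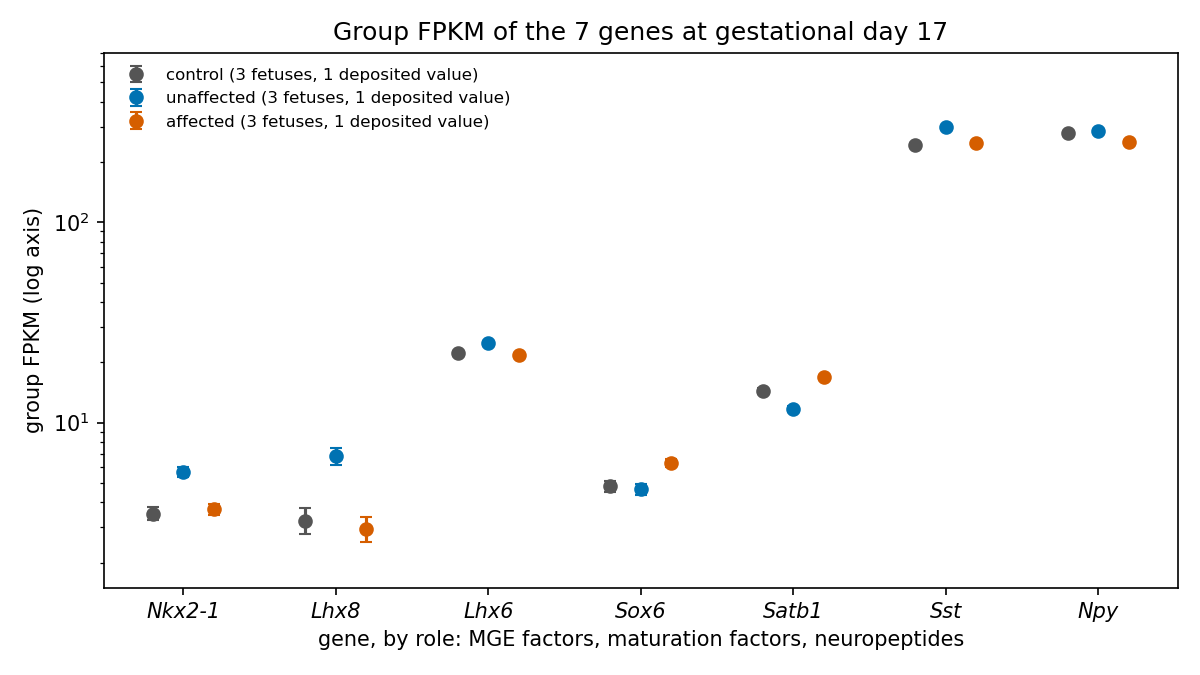
Group FPKM (log axis) of the 7 genes in control, unaffected and affected fetuses; each point is the 1 deposited value of a group of 3 animals and bars are 95% counting intervals from the estimated depth, which do not include the spread between animals. Nkx2-1 and Lhx8 sit highest in unaffected fetuses, at 5.67 and 6.78 FPKM, whereas Satb1 sits lowest there, at 11.6 FPKM.

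Sst and Npy encode the neuropeptides somatostatin and neuropeptide Y, made by overlapping classes of cortical interneurons. They were the most abundant of the 7 transcripts. Sst (chr16:23889581-23890844) was at 243 FPKM in control, 298 FPKM in unaffected and 249 FPKM in affected fetuses. Its unaffected value was log2 0.29 above control, with a counting interval of 0.25 to 0.33, and the affected was log2 -0.26 from the unaffected. Affected against control was log2 0.03 as deposited and -0.07 after scaling to Gapdh and Ywhaz. Per unit of Lhx6, Sst was at 10.97, 11.98 and 11.5 in control, unaffected and affected fetuses.

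Npy (chr6:49822729-49829510) was at 278 FPKM in control, 286 FPKM in unaffected and 252 FPKM in affected fetuses. All 3 differences were smaller in size once the length trend was removed. Affected against control was log2 -0.14 as deposited and -0.03 after the length trend was removed. Unaffected against control was log2 0.05 and -0.03 in the same order, and affected against unaffected was log2 -0.19 and 0.01. The ratio of Npy to Sst went from 1.14 in control to 0.962 in unaffected and 1.01 in affected fetuses, so the order of these peptide transcripts changed between control and unaffected fetuses by a margin that cannot be set against the spread between animals.

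Sox6 and Satb1, which encode an SRY-box factor and a chromatin organiser that position and mature MGE interneurons, were highest in affected fetuses. Both are also made outside this lineage, Satb1 in cortical projection neurons among others. Sox6 (chr7:115470890-116039771) was at 4.80 FPKM in control, 4.65 FPKM in unaffected and 6.30 FPKM in affected fetuses. The affected group stood above both others, by log2 0.39 over control and 0.44 over unaffected. Unaffected against control was log2 -0.05, within counting error (-0.17 to 0.08).

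Satb1 (chr17:51736187-51833290) was at 14.4 FPKM in control, 11.6 FPKM in unaffected and 16.9 FPKM in affected fetuses. Its unaffected value was lowest, at log2 -0.30 from control. The affected was log2 0.23 above control and log2 0.54 above unaffected, or 0.09 and 0.34 with the length trend removed. At 1.45-fold, the last ratio was the largest of those short of the limit, and the 0.650-fold ratio of Nkx2-1 lay just past it. Sox6 overlaps 3 annotated genes, all on the opposite strand, and Satb1 overlaps 6, of which 1 is on the opposite strand. Per unit of Lhx6, Satb1 was at 0.647, 0.469 and 0.777 and Sox6 at 0.216, 0.187 and 0.290 in control, unaffected and affected fetuses.

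In each group Sst and Npy held the top places by FPKM, followed by Lhx6 and then Satb1. Below them Sox6, Nkx2-1 and Lhx8 exchanged places. Control and affected fetuses had the order Sox6, Nkx2-1, Lhx8, and unaffected fetuses had Lhx8, Nkx2-1, Sox6. Their FPKM lay between 2.93 and 6.78 in every group.

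Unaffected against control, 5 of the 7 genes were higher and 2 lower, with a median of log2 0.16 beside 0.01 over all loci. Of the 7, 2 were past the limit, both higher. Among 15463 loci with a mean FPKM of at least 1, 5.52% were past it, 2.47% higher and 3.05% lower. The members past it were Nkx2-1 and Lhx8. Nkx2-1 was chosen on its difference between the exposed groups, which shares the unaffected value with this comparison, so nothing is read from that count.

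Affected against control, 4 were higher and 3 lower, with a median of log2 0.03 (the value of Sst, -0.07 after scaling to Gapdh and Ywhaz) beside 0.02 over all loci. None of the 7 was past the limit, and the furthest was Sox6 at 1.31-fold, where the background was 6.62% of 15474 loci, 3.48% higher and 3.14% lower. Affected against unaffected, 2 were higher and 5 lower, with a median of log2 -0.19 beside 0.01 over all loci. Of the 7, 2 were past the limit, both lower, beside 12.3% of 15467 loci in either direction, 7.2% higher and 5.13% lower. They were again Nkx2-1 and Lhx8, the former chosen on this contrast. These 3 comparisons share groups, so a high unaffected value enters 2 of them.

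**Figure D2:**
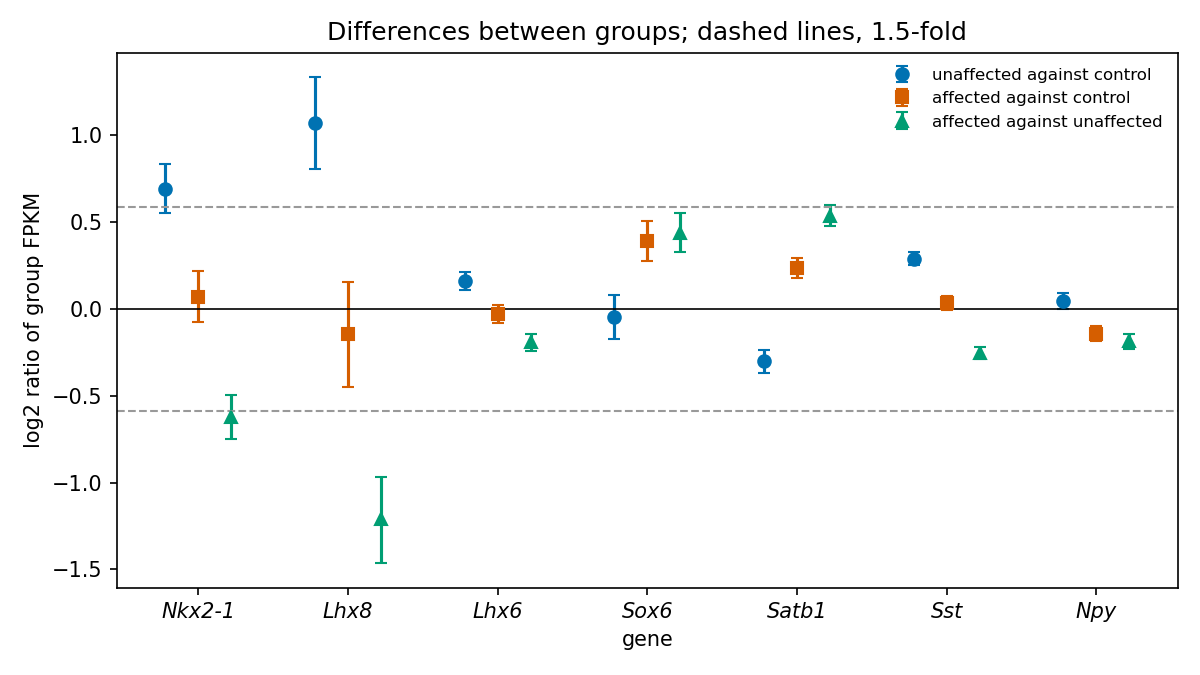
Log2 ratios of group FPKM for the 7 genes in the 3 comparisons, with 95% counting intervals and dashed lines at the 1.5-fold limit. The points past the lines belong to Nkx2-1 (0.69 and -0.62) and Lhx8 (1.07 and -1.21), while every ratio of affected against control lies within them.

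Many of the background loci are unnamed or short. Among 11239 loci of 1 protein-coding gene, a restriction chosen after seeing the data, the share past the limit was 0.374% for unaffected against control, 1.58% for affected against control and 6.56% for affected against unaffected. Loci whose unaffected value was at least 1.5-fold above both other groups numbered 176 of 15455, and 23 of the 11239 protein-coding loci, or 0.205%. Both Nkx2-1 and Lhx8 met this pattern, of which the choice of Nkx2-1 on affected against unaffected fixed one side.

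Differences between groups moved with transcript length over the 11618 of 12354 named loci (94.0%) for which a length was found, and all 7 members had one. For affected against unaffected the median went from log2 -0.14 in the shortest of 4 equal length classes to 0.19 in the longest. With this trend removed, Nkx2-1 was at 0.71 for unaffected against control and -0.70 for affected against unaffected, and Lhx8 at 1.03 and -1.10. Sox6, whose median transcript has 2844 bases, came to 0.30 for affected against unaffected and 0.28 for affected against control, below its deposited 0.44 and 0.39.

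By the distance between loci in the pair of log2 ratios to control, over 12353 other named loci, the 5 most like Nkx2-1 were Dio3, Asb4, Nkx2-3, Hist1h4i and Ecel1. Dio3, which encodes the deiodinase that inactivates thyroid hormone, was at 1.97, 3.15 and 2.01 FPKM in control, unaffected and affected fetuses. Asb4 was at 2.56, 4.32 and 2.74 FPKM, Ecel1 at 3.05, 4.80 and 2.96 FPKM, and Hist1h4i, a histone H4 gene, at 3.65, 5.82 and 3.58 FPKM. Nkx2-3, a homeobox gene of the same NK2 family, was at 1.08, 1.68 and 1.17 FPKM. All 5 were highest in unaffected fetuses, as the measure requires. The other members took places 183 (Sst), 249 (Lhx8), 857 (Lhx6), 4582 (Npy), 9035 (Sox6) and 11797 (Satb1) of 12353.

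**Figure D3:**
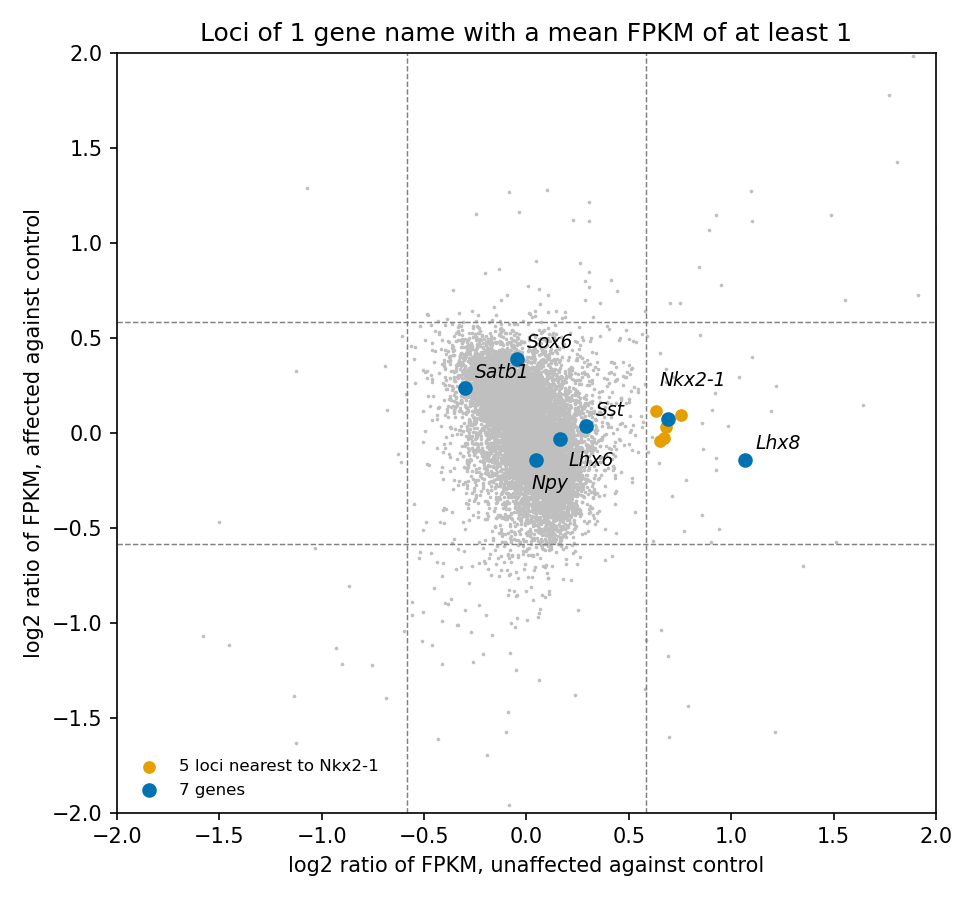
Log2 ratios to control of unaffected (horizontal axis) and affected fetuses (vertical axis) for 12354 loci of 1 gene name, of which 14 fall outside the axes; blue points are the 7 genes, orange points the 5 loci nearest to Nkx2-1, and dashed lines the 1.5-fold limit. Nkx2-1 and Lhx8 lie to the right, at 0.69 and 1.07, with affected values near 0, and both axes share the control group.

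Loci next to Nkx2-1 on chromosome 12 were given for comparison. E030019B13Rik (now Sfta3-ps) lies 2.52 kb away and was at 0.476, 0.998 and 0.409 FPKM in control, unaffected and affected fetuses, highest in the unaffected group at a level under 1 FPKM. Mbip, 186 kb away, was at 10.5, 12.2 and 8.23 FPKM and also highest in the unaffected group. Nkx2-9, Pax9 and Slc25a21 were below 0.1 FPKM in every group.

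Among factors related to the members in sequence, Sox5, the relative of Sox6 in deep-layer projection neurons, was at 15.6 FPKM in control, 13.0 FPKM in unaffected and 24.3 FPKM in affected fetuses. It was past the limit in both comparisons of the affected group, at log2 0.64 against control and 0.91 against unaffected. Like Sox6, it was highest in the affected group.

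The wider MGE programme was mixed. Of 24 genes of ganglionic eminence progenitors and the MGE lineage, 20 had a mean of at least 1 FPKM, and 11 of these were higher in unaffected than in control fetuses, 1 of them past the limit, with a median of log2 0.01. Affected against control, 15 of 20 were higher, with a median of log2 0.22 beside 0.02 over all loci and none past the limit. Affected against unaffected, 12 of 20 were higher, 2 were past the limit higher and 2 lower, beside 7.2% and 5.13% of 15467 loci. The lower ones were Gbx1, at 0.701, 1.60 and 0.758 FPKM, and Zic1, at 21.7, 29.4 and 17.5 FPKM, both expressed in the ventral and septal telencephalon. The higher ones were Mef2c, at 46.3, 33.6 and 55.7 FPKM, and Zeb2, at 56.5, 45.7 and 72.4 FPKM, which maturing cortical neurons of several classes also make. Shh, the ligand that maintains Nkx2-1 in the MGE, was at 0.308, 0.524 and 0.470 FPKM, below the level at which ratios were counted. Its receptor and target Ptch1 was level, at 4.64, 4.71 and 5.03 FPKM.

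All 9 genes of GABA synthesis, release and pan-GABAergic specification were above 1 FPKM, and 8 of them were higher in unaffected than in control fetuses, with a median of log2 0.18. None was past the limit in any comparison. Dlx6os1, a noncoding transcript of the Dlx5 and Dlx6 locus named Dlx6as1 in the table, came nearest at 28.2, 36.1 and 25.7 FPKM. The homeobox genes of this locus, which all ganglionic eminences use, were at 14.4, 19.8 and 14.9 FPKM for Dlx6 and at 31.8, 39.0 and 35.5 FPKM for Dlx5. Gad1 and Gad2, which encode the enzymes of GABA synthesis, were at 23.2, 23.9 and 20.9 FPKM and at 11.8, 13.4 and 12.8 FPKM. Affected against unaffected, 1 of the 9 was higher.

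Of 15 genes for interneuron migration, 3 were higher in unaffected than in control fetuses. Affected against unaffected, 12 were higher, with a median of log2 0.41 beside 0.01 over all loci. With the length trend removed, where a length was found, the median was 0.30. Of the 15, 4 were past the limit, all higher, beside 7.2% of 15467 loci past it in that direction. These were Nrp1 (30.3, 23.9 and 36.9 FPKM), Robo1 (35.2, 29.6 and 45.8 FPKM), Plxna2 (23.6, 20.9 and 33.6 FPKM) and Dcx (126, 104 and 160.1 FPKM), all of which projection neurons make as well. The length trend was log2 0.16 at 3188 bases, near the lengths of Nrp1, Plxna2 and Dcx, whose ratios as deposited were log2 0.63, 0.68 and 0.62. The chemokine receptors that guide tangential migration were highest in unaffected fetuses and lowest in affected fetuses, with Cxcr4 at 44.1, 49.7 and 34.2 FPKM and Ackr3, named Cxcr7 in the table, at 18.0, 21.1 and 14.8 FPKM.

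Among 19 products of MGE-derived interneurons and receptors of their peptides, 12 reached 1 FPKM. For unaffected against control 3 of the 12 were higher, with a median of log2 -0.09 and none past the limit. Nos1, the neuronal nitric oxide synthase, was at 4.12, 3.05 and 6.20 FPKM and past the limit in both comparisons of the affected group. Against control it lay only just past, at log2 0.589 beside the limit of 0.585, with no adjustment for its length of 4388 bases. Chodl, at 4.05, 3.94 and 2.83 FPKM, and Cort, at 2.51, 2.13 and 1.84 FPKM, were lowest in affected fetuses. Of the 12, 5 were higher in affected than in control fetuses, with a median of log2 -0.03. Tac1, a tachykinin precursor, was at 20.3, 23.2 and 14.9 FPKM and past the limit for affected against unaffected. Pvalb, which marks the other main class of MGE interneurons after birth, was at 0.0786, 0.0337 and 0.0400 FPKM.

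The tissue was checked with marker lists, whose part in the differences of Nkx2-1 and Lhx8 was not tested. Cortical markers were high in every group, with Neurod6 at 409, 378 and 416 FPKM, Tbr1 at 75.7, 62.1 and 98.3 FPKM and Emx1 at 37.0, 39.0 and 37.0 FPKM in control, unaffected and affected fetuses. In bulk tissue, fewer cells of a type and less RNA per cell cannot be told apart.

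Markers of ventral regions that also make Nkx2-1 or Lhx8 were measured as well. The 23 hypothalamic genes summed to 17.1 FPKM in control, 22.6 FPKM in unaffected and 16.4 FPKM in affected fetuses, and 11 of the 23 were highest in unaffected fetuses, beside 38.2% of 19216 named loci above 0 FPKM. Of the 20 above 0 in control and unaffected fetuses, 13 were higher in unaffected fetuses, with a median of log2 0.37. Of the 20 above 0 in unaffected and affected fetuses, which are not all the same genes, 4 were higher in affected fetuses, with a median of log2 -0.40. Most genes of either set were under 1 FPKM, where ratios rest on few fragments. Galanin (Gal) was at 1.51, 2.83 and 1.64 FPKM and Prdm12 at 1.07, 2.02 and 1.24 FPKM, in the order of Nkx2-1, whereas Fezf1, at 0.800, 1.72 and 1.74 FPKM, was also high in affected fetuses. Of the defining genes, Pomc was at 0.907, 1.34 and 0.966 FPKM, Otp at 0.446, 0.692 and 0.595 FPKM, Ghrh at 0.423, 0.902 and 0.638 FPKM, Bsx at 0.0967, 0.314 and 0.0882 FPKM and Hcrt at 0.0659, 0.0300 and 0.0222 FPKM, whereas Nkx2-4 was listed at 0 in control and unaffected and Rax at 0 in control fetuses. Like Hcrt, other defining genes were highest in control fetuses. They were Oxt (0.150, 0.0880 and 0.0358 FPKM), Kiss1 (0.308, 0.121 and 0.0328 FPKM), Pmch (0.213, 0.148 and 0.148 FPKM) and Nr5a1 (0.0138, 0.00844 and 0.00659 FPKM).

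Of 11 cholinergic and pallidal genes, 7 were highest in unaffected fetuses, 4 of them at a mean under 1 FPKM. Among named loci the share highest in unaffected fetuses was 41.8% at a mean of at least 1 FPKM and 31.8% under 1 FPKM. Of the 7 with a mean of at least 1 FPKM, 4 were higher in unaffected than in control fetuses, with a median of log2 0.01. Past the limit there was Gbx1, given above. Zic4, at 5.78, 8.34 and 4.32 FPKM, was short of it at log2 0.53, and both genes were past it, lower, for affected against unaffected. Chat, the enzyme of acetylcholine synthesis that Lhx8 cells acquire, was at 0.0158, 0.0448 and 0.0209 FPKM and the vesicular transporter Slc18a3 at 0.357, 0.529 and 0.231 FPKM. Lung and thyroid markers were all below 1 FPKM and summed to 1.499, 1.41 and 1.51 FPKM, with Sftpd listed at 0 in every group.

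**Figure D4:**
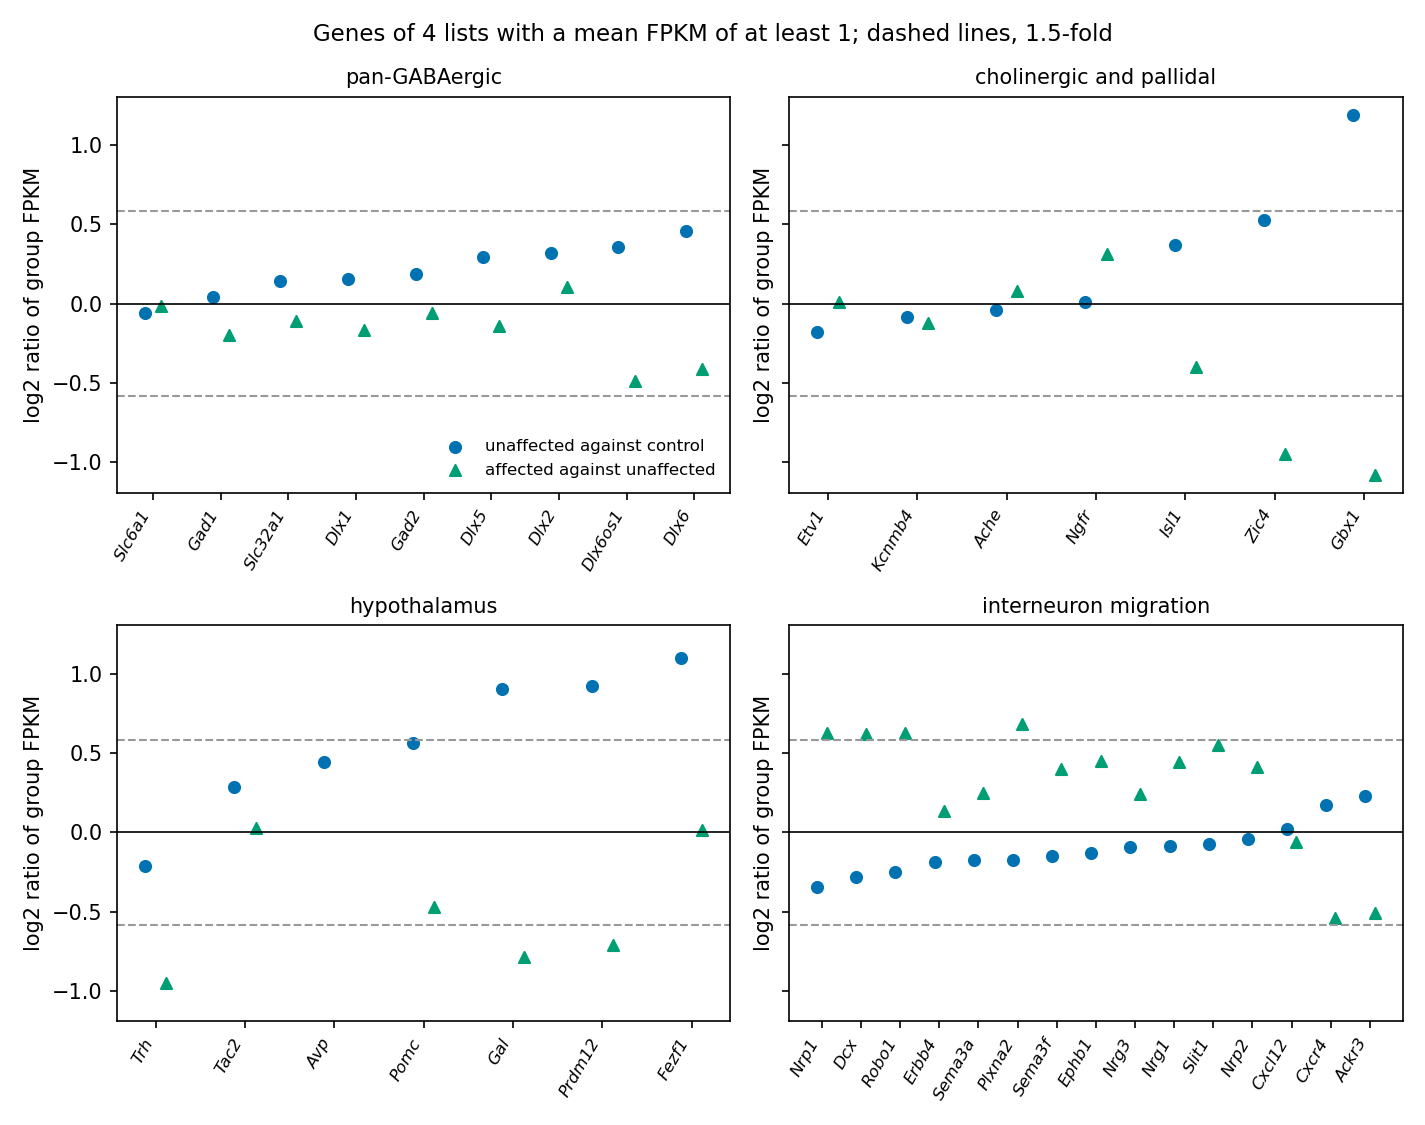
Log2 ratios of group FPKM for genes of 4 lists with a mean of at least 1 FPKM, ordered by unaffected against control (circles), with affected against unaffected (triangles) and dashed lines at the 1.5-fold limit. Gal, Prdm12, Gbx1 and Zic4 are high in unaffected fetuses, pan-GABAergic genes lie within the lines, Nrp1, Robo1, Plxna2 and Dcx of the migration list have triangles above them, and Avp, listed at 0 in affected fetuses, has no triangle.

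Blood and choroid plexus genes also differed between groups. The 4 blood genes found summed to 5613 FPKM for control, 7257 for unaffected and 3487 for affected fetuses. Most of each sum was 1 joined beta-globin locus, at 5357, 6924 and 3277 FPKM. Only 1 of the 4 was higher in affected than in control fetuses, Hbb-y at 0.953, 3.34 and 2.56 FPKM. Alas2 was at 18.9, 25.2 and 17.8 FPKM. Of the choroid plexus genes, Ttr, which encodes transthyretin, was highest in unaffected fetuses, at 970.2, 1291 and 1077 FPKM. Clic6 was highest in affected fetuses, at 4.48, 5.36 and 8.31 FPKM, past the limit in both comparisons of that group. The part of these tissues in the differences of the 7 genes was not tested.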

How the data were processed

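RNA was taken from 9 fetal brains, 3 in each of 3 groups, and grouped by the sample titles. Libraries were made with the TruSeq RNA kit. The methods name STAR and, in another passage, Bowtie with TopHat and the Cufflinks suite, and the submitters' processing notes name Bowtie2, with mm10, Cufflinks and Cuffdiff. The authors deposited FPKM, scaled by the software to exon length and mapped fragments, as 1 value per group and locus. The deposited table also holds fold changes, test statistics, p-values, q-values and calls of the authors' own comparisons, which were not used.

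FPKM were read for the 27095 loci, and log2 ratios were taken with a pseudocount of 0. Loci needed a mean of at least 1 FPKM and a value above 0 in both groups. A difference of 1.5-fold was the limit, and no test was possible. The procedure was tested on simulated data. Members and gene lists were chosen with earlier results of these data known. Named besides the members are list genes past the limit with a mean of at least 1 FPKM, defining markers, genes a role sentence needs, the 5 loci nearest to Nkx2-1 by Euclidean distance in the log2 ratios to control, and neighbours of Nkx2-1. Some genes under this rule are not reported here. List names were matched to the table through RefSeq synonyms where needed. Transcript length is the median over GENCODE M21 transcripts, and its trend was removed with a running median over 501 loci. Depth was estimated, after the data were seen, from loci below 0.1 FPKM with a fragment length of 210 bases. Counting intervals are 95% and cover counting error only. Alternatives were other pseudocounts, filters, fold limits, scalings, joined loci and length. Work was done in Python 3.11.15 with pandas 2.3.3 and scipy 1.17.1.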

Additional observations from a re-analysis of the deposited data

How the results depend on the processing

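No paired analysis was possible because the table holds 1 value per group and none per animal, and for the same reason no replicate could be left out. Over the alternatives, the differences of Nkx2-1 and Lhx8 between unaffected fetuses and each other group kept their direction. With a pseudocount of 1, Nkx2-1 was at log2 0.56 for unaffected against control and at -0.51 for affected against unaffected, short of the limit, as the pseudocount shrinks ratios of low genes. Scaling to Gapdh and Ywhaz turned affected against control to -0.030 for Nkx2-1 and to -0.068 for Sst and for the median of the 7 genes. Removing the length trend turned Npy to -0.027 for unaffected against control and to 0.0069 for affected against unaffected. The number of the 7 genes past the limit became 1 with a pseudocount of 1 or a limit of 2-fold for unaffected against control, and likewise for affected against unaffected. With the lower limit tried it became 1 for affected against control and 4 for affected against unaffected.

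The share of all loci past the limit moved by construction with the limit and the loci counted. For unaffected against control it was 12.6% at the lower limit, 2.04% at 2-fold, 2.79% at a mean of at least 3 FPKM, 12.3% with no filter, 3.29% with a pseudocount of 1 and 0.374% over protein-coding loci. For affected against control these shares were 24.1%, 2.18%, 3.65%, 14.8%, 3.82% and 1.58%, with 10.6% at a mean of at least 0.1 FPKM. For affected against unaffected they were 39.2% at the lower limit, 2.94% at 2-fold, 19.5% with no filter, 7.19% with a pseudocount of 1 and 6.56% over protein-coding loci. Centring on the median shifted log2 ratios by -0.01, -0.02 and -0.01 in the 3 comparisons, and the Gapdh and Ywhaz scaling shifted them by -0.03, -0.10 and -0.07. By the estimated fragments, depth limits Lhx8 most, and the spread between animals is unknown.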

Other observations

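Interneuron genes of other origins were measured in the same groups. Of 14 genes of caudal ganglionic eminence and preoptic interneurons, 11 had a mean of at least 1 FPKM, and for unaffected against control 2 of these were higher and none was past the limit. Affected against unaffected, 7 of 11 were higher, with a median of log2 0.36, or 0.29 with the length trend removed. Of the 11, 2 were past the limit, both higher, beside 7.2% of 15467 loci past it in that direction. These were Prox1, a homeobox gene of caudal interneurons, at 3.43, 2.897 and 4.45 FPKM in control, unaffected and affected fetuses, and Reln, the reelin gene of Cajal-Retzius cells and interneurons, at 22.7, 19.9 and 31.8 FPKM. Prox1 was at log2 0.62 as deposited, and the length trend was log2 0.16 at 3188 bases, near its 3285. Calb2, which encodes calretinin, was at 34.9, 32.0 and 24.5 FPKM. Vip, a peptide of caudal interneurons after birth, was listed at 0 in control and below 0.01 FPKM in the exposed groups.

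Striatal genes, which mark the lateral ganglionic eminence and its projection neurons, showed no locus past the limit. Of 16 genes with a mean of at least 1 FPKM, 7 were higher in unaffected than in control fetuses and 13 were higher in affected than in unaffected fetuses, with a median of log2 0.20 for the latter. Isl1, a LIM homeodomain gene of striatal and cholinergic neurons, was at 11.3, 14.6 and 11.03 FPKM, highest in unaffected fetuses. Among thalamic genes, Tcf7l2 was at 4.18, 2.29 and 2.39 FPKM, lower in both exposed groups. In the hypothalamic list, Trh, which encodes thyrotropin-releasing hormone, was at 2.69, 2.32 and 1.20 FPKM, and Avp, the vasopressin gene, at 1.57 and 2.13 FPKM in control and unaffected fetuses and listed at 0 in affected fetuses. The oligodendrocyte precursor gene Cspg4 was at 1.07, 0.841 and 1.49 FPKM, whereas Olig2, at 9.41, 9.03 and 9.79 FPKM, and Olig1, at 16.7, 16.3 and 16.3 FPKM, were level.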
